A study of Rattus norvegicus with 8 samples.

Results

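The region described here is the stretch of rat chromosome 5 between 30 Mb and 120 Mb of the rn6 build, in which some tumour libraries of a rat bladder cancer study held a smaller share of their reads than the control libraries. It was chosen for its coverage, and its methylation was not used to choose it. Its members were the 200-base tiles with at least 3 CpGs in each of the 8 samples, which came to 4717 of the 258144 such tiles of the genome. The other 12151 tiles of chromosome 5 served as the comparison.

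The samples were 5 urothelial carcinomas (UCs) of F344/DuCrj rats given 200 ppm dimethylarsinic acid (DMA) in drinking water for 104 weeks, and the bladders of 3 rats given water with 0 ppm. The rats were 10 weeks old at the start and, by the study's methods, male. The tumours were picked by eye and had no histology, the labels call the controls urothelium whereas the methods call them bladder tissue, and nothing in the labels says whether the 5 tumours came from 5 animals. Control 1 to control 3 and UC 1 to UC 5 follow the numbers of the labels.

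Cytosine methylation at CpG sites is a mark that is copied when DNA replicates. CpG-rich promoters are mostly free of it in normal tissue, and in many cancers some of them gain it while CpG-poor DNA between genes loses it. Reduced representation bisulfite sequencing (RRBS) enriches CpG-rich DNA by restriction digestion and reads an unmethylated cytosine as T and a methylated one as C. The share of a library's reads in a large window depends in part on the number of copies of that window in the sampled cells. The same counts thus give a methylation level and a rough view of gained and lost chromosome segments. Copy number was not measured in any other way here. The stretch carries Cdkn2b, which codes for an inhibitor of cyclin-dependent kinases and is a neighbour of Cdkn2a, a tumour suppressor gene lost in many bladder cancers.

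The promoters that the methylation results turn on are shown first. They are the 6 promoter windows of the stretch with higher methylation in the UCs, and that of Cdkn2b, which stayed near 0 in every sample. Each sequence is the RefSeq window of the GRCr8 build, 250 bases before to 50 bases after the start of the gene, on the strand of the gene, and capitals mark the CpGs that had reads in all 8 samples. In GRCr8 these are chr5:64858750-64859049 (Aldh1b1, plus strand), chr5:119450282-119450581 (Foxd3, plus strand), chr5:40029609-40029908 (Prdm13, minus strand), chr5:67548864-67549163 (LOC102551711, minus strand), chr5:67792182-67792481 (Cavin4, plus strand), chr5:53336808-53337107 (Spaca1, minus strand) and chr5:109134806-109135105 (Cdkn2b, minus strand).
Aldh1b1: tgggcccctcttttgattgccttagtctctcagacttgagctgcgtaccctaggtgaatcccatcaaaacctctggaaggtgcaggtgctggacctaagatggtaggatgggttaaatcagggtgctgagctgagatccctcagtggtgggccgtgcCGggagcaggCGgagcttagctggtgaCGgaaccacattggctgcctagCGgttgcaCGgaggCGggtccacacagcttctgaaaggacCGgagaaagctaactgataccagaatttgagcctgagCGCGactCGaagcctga
Foxd3: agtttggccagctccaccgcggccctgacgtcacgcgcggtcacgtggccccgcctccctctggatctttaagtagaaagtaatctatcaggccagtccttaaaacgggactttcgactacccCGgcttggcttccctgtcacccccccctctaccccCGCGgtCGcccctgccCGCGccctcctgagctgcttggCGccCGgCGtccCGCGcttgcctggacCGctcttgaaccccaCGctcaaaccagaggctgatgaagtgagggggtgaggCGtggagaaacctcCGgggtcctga
Prdm13: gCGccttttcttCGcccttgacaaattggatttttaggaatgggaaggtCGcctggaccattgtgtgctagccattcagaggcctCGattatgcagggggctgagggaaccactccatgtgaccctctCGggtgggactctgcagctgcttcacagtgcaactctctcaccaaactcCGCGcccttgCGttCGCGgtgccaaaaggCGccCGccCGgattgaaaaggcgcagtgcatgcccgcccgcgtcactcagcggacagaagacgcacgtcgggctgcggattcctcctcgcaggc
LOC102551711: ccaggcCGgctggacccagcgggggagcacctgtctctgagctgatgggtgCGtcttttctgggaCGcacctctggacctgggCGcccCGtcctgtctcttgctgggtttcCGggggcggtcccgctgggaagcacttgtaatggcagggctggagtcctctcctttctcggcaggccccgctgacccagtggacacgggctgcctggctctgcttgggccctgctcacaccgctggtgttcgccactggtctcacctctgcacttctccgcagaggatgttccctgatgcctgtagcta
Cavin4: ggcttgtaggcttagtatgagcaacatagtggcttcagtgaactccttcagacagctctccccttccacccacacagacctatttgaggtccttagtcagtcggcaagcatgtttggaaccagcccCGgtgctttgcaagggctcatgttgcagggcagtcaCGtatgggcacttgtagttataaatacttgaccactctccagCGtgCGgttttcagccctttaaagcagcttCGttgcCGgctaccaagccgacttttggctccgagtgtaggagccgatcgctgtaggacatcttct
Spaca1: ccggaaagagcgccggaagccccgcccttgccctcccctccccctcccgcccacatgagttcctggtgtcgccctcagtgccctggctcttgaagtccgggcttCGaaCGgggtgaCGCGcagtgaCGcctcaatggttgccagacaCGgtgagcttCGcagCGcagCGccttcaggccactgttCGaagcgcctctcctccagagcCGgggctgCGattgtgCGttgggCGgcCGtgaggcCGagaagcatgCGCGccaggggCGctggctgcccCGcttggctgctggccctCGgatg
Cdkn2b: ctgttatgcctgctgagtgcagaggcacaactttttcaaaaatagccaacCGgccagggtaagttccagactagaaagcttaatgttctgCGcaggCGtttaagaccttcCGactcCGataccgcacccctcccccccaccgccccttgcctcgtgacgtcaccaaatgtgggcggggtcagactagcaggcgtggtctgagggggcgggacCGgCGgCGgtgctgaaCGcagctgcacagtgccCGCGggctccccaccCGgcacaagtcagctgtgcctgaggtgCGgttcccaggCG
These windows held between 11 CpGs (Cavin4) and 29 CpGs (Spaca1), of which 6 to 21 were read in all 8 samples, and their content of G and C ran from 52.3% (Cavin4) to 69.3% (Spaca1).

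Coverage was taken as the share of the calls of chromosomes 1 to 20 that fell in each 2-Mb window, as log2 over the mean of the 3 controls. Coverage chose the stretch, so these values are a description and were not tested. Over the 45 windows of the stretch the medians of control 1 to control 3 were -0.01, 0.04 and -0.03. UC 1 had a median of -0.77, a ratio of 0.585 to the controls, and UC 2 a median of -0.75, a ratio of 0.595. UC 3 had a median of -0.27, a ratio of 0.832. UC 4 and UC 5 had medians of -0.0048 and -0.0019, inside the range of the controls. All 45 windows were below -0.5 in UC 1 and 36 of them in UC 2, whereas none was in UC 3.

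**Figure D1:**
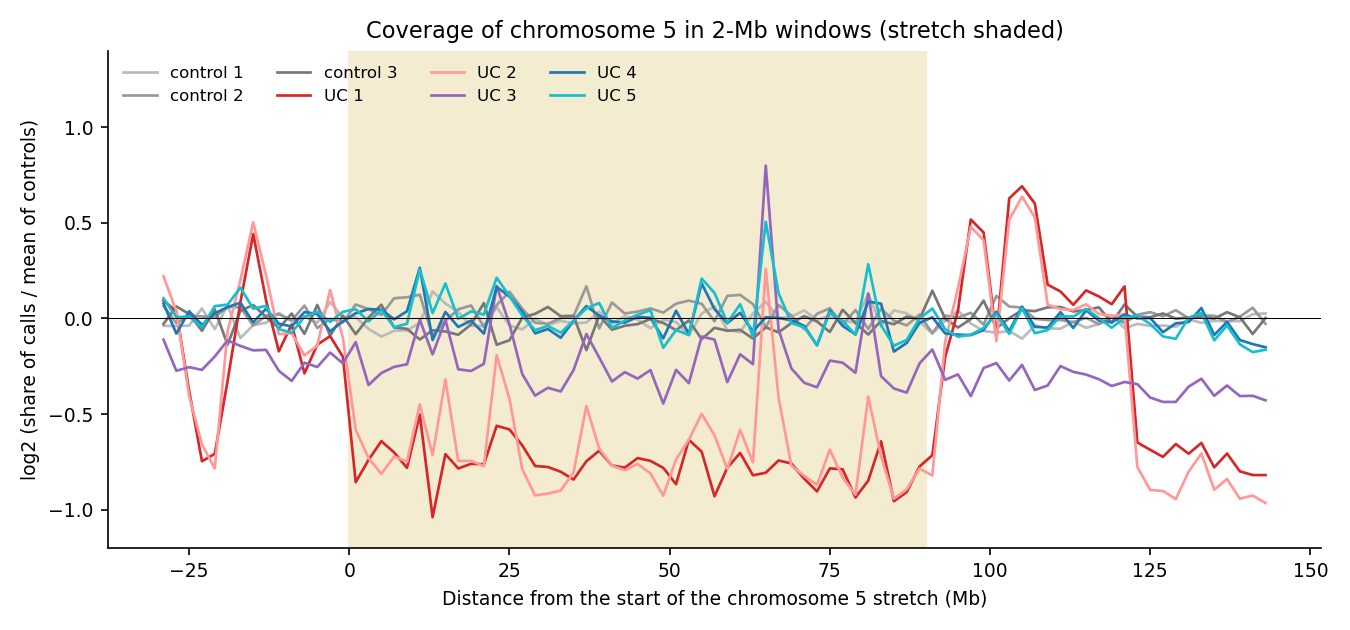
Coverage of chromosome 5 in 2-Mb windows, with the distance from the start of the stretch in Mb on the x axis and the log2 ratio of a sample's share of calls to the mean of the 3 controls on the y axis. Each line is a sample and the stretch is shaded. In the stretch UC 1 runs from -1.04 to -0.503 around its median of -0.77, and UC 2 from -0.94 to 0.26 around -0.75. UC 3 is low along most of the chromosome, and UC 4 and UC 5 mostly lie near the controls. UC 3 and UC 5 peak at 0.80 and 0.51 in the stretch.

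The drop of UC 3 was not particular to the stretch. Its median over the 42 windows of the rest of chromosome 5 was -0.29, against -0.27 in the stretch, so that the label of a stretch with reduced coverage fits UC 1 and UC 2 and not UC 3, whose whole chromosome 5 was low. In the rest of the chromosome UC 1, UC 2, UC 4 and UC 5 had medians of -0.12, -0.08, -0.02 and 0.0018.

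The edges of the drop in UC 1 and UC 2 lay close to the limits chosen. In the window just before the stretch, from 28 Mb, the log2 coverage was -0.20 in UC 1 and -0.10 in UC 2, and in the first window inside it was -0.86 and -0.58. In the last window inside the values were -0.77 and -0.79. The window just after the stretch, from 120 Mb, was still low, at -0.72 and -0.82, and the next was at -0.20 and -0.12. Among the 42 windows outside, 14 had a mean of UC 1 and UC 2 under -0.5, with medians of -0.71 in UC 1 and -0.87 in UC 2. They lay at 6 to 10 Mb, at 120 to 122 Mb and from 152 Mb to the end of the chromosome. Between the stretch and that end, windows from 126 Mb reached 0.69 in UC 1 and 0.64 in UC 2. The rest of chromosome 5 is thus not a region of normal coverage in these tumours, and the other 28 windows outside are given separately below. These 28 hold gains and milder drops, such as -0.38 in UC 1 and -0.41 in UC 2 in the window from 4 Mb.

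A few CpGs set the coverage of a window in some samples. In the window from 94 Mb, UC 2, UC 3 and UC 5 had a log2 coverage of 0.26, 0.80 and 0.51. It held 7 CpGs at chr5:95659077-95659135 with a median of 454 reads in UC 2, 592 in UC 3 and 398 in UC 5, against 40, 4 and 48 in the controls, 18 in UC 1 and 8 in UC 4. Without these CpGs the same 3 values were -0.58, -0.16 and 0.06. Their methylation level lay between 73.2% and 83.2% in all 8 samples.

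The lower coverage left fewer calls behind each methylation level. A tile of the stretch held a median of 107, 93 and 113 calls in the controls and, from UC 1 to UC 5, of 67, 66, 76, 93 and 128 calls. In the rest of chromosome 5 the medians were 100 in UC 1 and 94 in UC 2. The libraries held 51434938 to 73836223 calls, with a median of 14 to 18 reads per CpG. On the levels of the stretch, UC 1 and UC 2 were as close to each other (root mean square difference of 7.13 points per tile, chi-square per tile of 1.32) as the controls were (6.84 to 6.99 points, 1.39 to 1.51), and so were UC 4 and UC 5 (6.06 points, 1.33). Distances between UCs of different pairs, or to UC 3, were 13.9 to 15.4 points. Whether each pair came from a single animal or tumour is not in the labels, so the main tests below are also given with each pair merged into 1 sample.

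Methylation of the stretch moved in both directions. Calls required an adjusted p under 0.05 by a quasi-binomial test with limma-moderated dispersion, and group means more than 10 points apart. In the stretch 395 tiles were called higher in the UCs and 297 lower. That is 8.37% and 6.30% of its tiles, against 9.29% and 7.15% of all tiles of the genome, and 9.12% and 8.17% of the rest of chromosome 5. The shares of called tiles were thus near the background or below it. The 5 UCs lay above all 3 controls in 353 of the 395 higher tiles and below them in 273 of the 297 lower tiles, 89.4% and 91.9% of the calls. Over all tiles these shares were 91.8% and 94.6%, and in the rest of chromosome 5 86.6% and 92.1%. The median difference of the called tiles was 25.5 points among the higher tiles and -32.0 points among the lower tiles, close to the 24.8 and -31.3 points of the rest of chromosome 5. With UC 1 merged with UC 2, and UC 4 with UC 5, 182 higher and 149 lower tiles were called. Leaving out a control also lowered the counts by over 1.5 times. There were then 226 and 169 calls (control 1 left out), 204 and 161 (control 2) or 172 and 148 (control 3).

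The called tiles were spread unevenly along the stretch. Of the 9 blocks of 10 Mb, the last, from 110 Mb, had the highest percentage of higher tiles, at 12.4% of 484, and the block from 100 Mb had 9.86% of 507. The block from 80 Mb had the lowest, at 4.73% of 148 tiles, and the first block, from 30 Mb, had 5.09% of 275. Tiles called lower were most frequent in the block from 70 Mb, at 8.28% of 930, and least in the first, at 2.55%. Most called tiles stood alone. The 395 higher tiles formed 338 runs of adjacent tiles, 294 of them single tiles, and the 297 lower tiles formed 272 runs, 251 of them single.

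**Figure D2:**
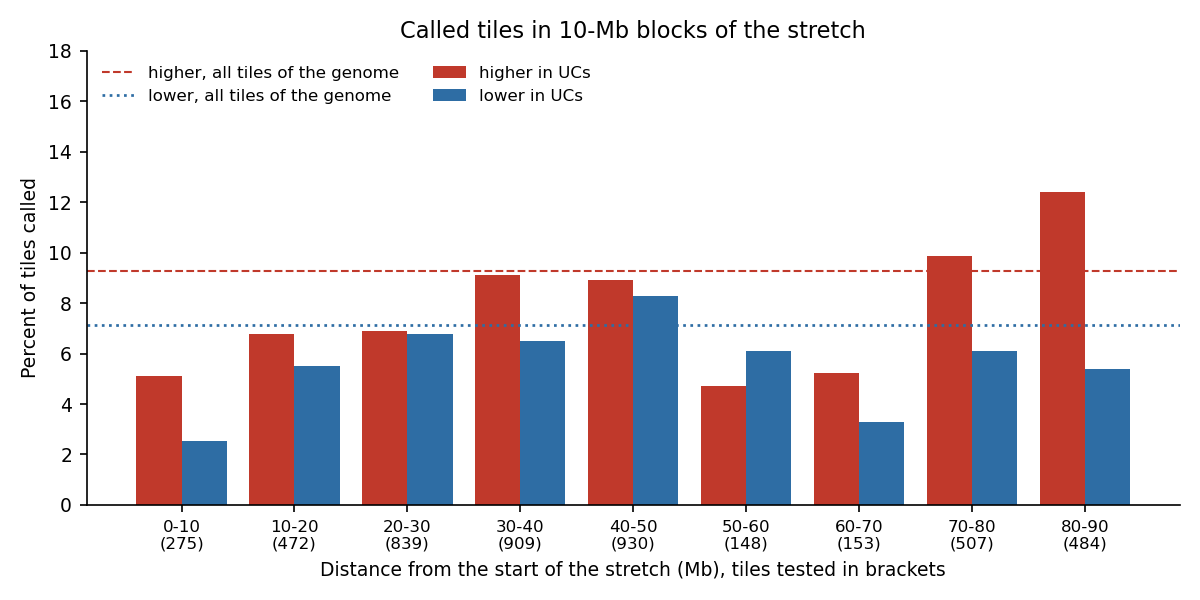
Percentage of tiles called higher (red) and lower (blue) in the UCs in each 10-Mb block of the stretch, with the distance from its start in Mb and the number of tiles tested below each pair of bars. The dashed and dotted lines give the percentages over all tiles of the genome, 9.29% and 7.15%, and the bars of higher tiles run from 4.73% to 12.4%.

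The shares of tiles called higher and lower varied with CpG density, much as they did over the genome. Tiles with 3 to 4 CpGs made up 50.3% of the stretch, had a median control level of 80.5%, and were called higher in 8.76% and lower in 8.55%, against 9.44% and 9.03% over all tiles and 9.15% and 10.4% in the rest of chromosome 5. Tiles with 5 to 8 CpGs were called higher in 10.1% and lower in 5.82%, against 10.7% and 7.56% over all tiles and 10.7% and 8.996% in the rest of the chromosome. The 486 tiles with 9 to 14 CpGs had a median control level of 0.991% and were called higher in 4.73% and lower in 2.06%, where the same class was called higher in 8.64% in the rest of chromosome 5 and in 8.05% over the genome. Among the 413 tiles with 15 or more CpGs, 4.36% were called higher, against 3.95% in the rest of the chromosome and 4.56% over the genome.

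To set gains and losses in each tumour beside its own coverage, tiles were divided by the mean of the controls. In the stretch 1216 tiles were under 10%, 1961 were over 80%, 1444 lay from 20 to 80%, and the remaining 96 lay between 10 and 20%. A tile counted as raised or lowered in a sample where it was over 20 points from the mean of the controls, or, for a control, from the mean of the other controls. Tiles under 10% or over 80% were chosen by these same controls, which left a control little room to move that far. The control values for these tiles are therefore not a background rate. For the same reason the exact p-values given for them below cannot compare UCs with controls.

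Among the 1216 tiles that were almost unmethylated in the controls, UC 1 to UC 5 had 5.35%, 5.02%, 1.07%, 2.96% and 2.80% raised, and 0 were raised in any control. The choice of tiles by the controls nearly fixed that 0, and with it the control side of the test below. UC 1 and UC 2 were the highest and UC 3 was the lowest. In bulk DNA a lower share of changed cells and a smaller change per cell cannot be told apart, and tumour cells were not separated from other cells here. UC 1 and UC 2 were also the highest and UC 3 the lowest outside the stretch, where 4.77%, 4.93%, 1.13%, 3.25% and 3.13% of 3103 such tiles were raised in UC 1 to UC 5. The difference between the stretch and the rest of chromosome 5 was 0.58, 0.09, -0.06, -0.29 and -0.33 points from UC 1 to UC 5, against 0 in each control (mean of UCs minus controls -0.00433 points, two-sided exact permutation p = 1, and -0.00916 points with the pairs merged, p = 1). In the 28 outside windows not counted as low, 4.06% were raised in UC 1 and 4.40% in UC 2. These 28 hold gains and milder drops, so they are not windows of normal coverage. In the 14 outside windows counted as low, 5.66% were raised in UC 1 and 5.59% in UC 2. In UC 4 and UC 5, whose coverage was that of the controls in both sets, the values were 2.90% and 2.90% against 3.70% and 3.41%.

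Among the 1961 tiles that were almost fully methylated in the controls, UC 1 to UC 5 had 6.32%, 6.94%, 3.47%, 8.72% and 9.13% lowered, against 0.204%, 0.153% and 0.153% in the controls. Here UC 4 and UC 5 were the highest and UC 3 again the lowest. The corresponding values over the 4549 tiles of the rest of chromosome 5 were 6.46%, 7.25%, 4.02%, 8.82% and 9.14%. The stretch differed from the rest by -0.14, -0.32, -0.56, -0.10 and -0.02 points from UC 1 to UC 5, and by -0.02, 0.02 and -0.09 in the controls (mean of UCs minus controls -0.197 points, two-sided exact permutation p = 0.143). With the pairs merged the difference was -0.415 points (exact permutation p = 0.1, the smallest that 3 against 3 allow). The unmerged difference turned positive with 10 reads per CpG (0.0103), with 10 calls per tile in place of 3 CpGs (0.494), with 1-kb tiles (0.173) and without the other low windows (0.308). It passed its threshold with a limit of 30 points (-0.527 points, p = 0.0357) and without control 1 (-0.801 points, p = 0.0476, the smallest p that 2 controls and 5 UCs allow), by the same exact permutation test.

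**Figure D3:**
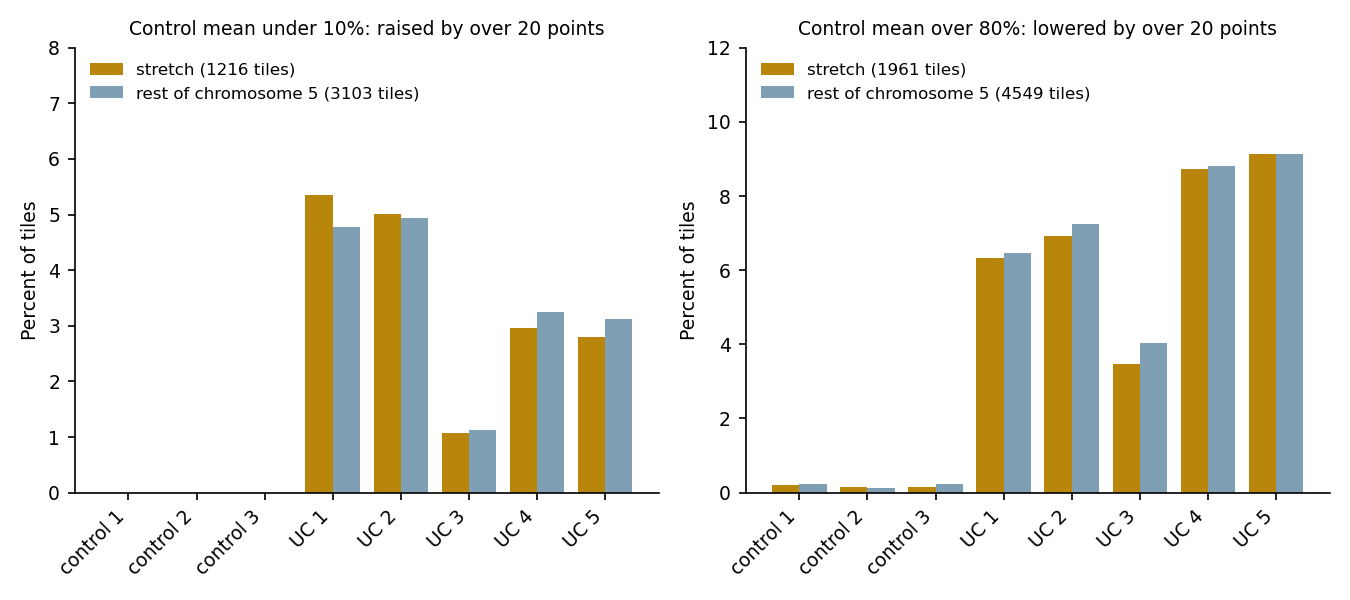
Percentage of tiles raised by over 20 points among tiles with a control mean under 10% (left) and lowered by over 20 points among tiles with a control mean over 80% (right), in each sample, for the stretch and the rest of chromosome 5. The paired bars are of similar height in every UC, from 1.07% to 5.35% on the left and from 3.47% to 9.14% on the right.

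The 1444 tiles of intermediate level moved more often and in both directions. In UC 1, 29.7% of them were raised and 18.2% lowered, and in UC 2, 29.1% and 19.6%. In UC 3, 9.14% were raised and 9.83% lowered. UC 4 and UC 5 had 22.8% and 22.9% raised and 21.4% and 22.0% lowered, and the controls had 1.32% to 2.29% in either direction. Raised tiles thus outnumbered lowered ones in UC 1 and UC 2, and the numbers were close to each other in the other UCs. In the rest of chromosome 5 the raised and lowered percentages were 27.9% and 20.2% in UC 1, 26.7% and 21.4% in UC 2, 6.94% and 11.3% in UC 3, 20.02% and 22.6% in UC 4, and 20.04% and 23.7% in UC 5. Raised tiles were more frequent and lowered tiles less frequent in the stretch than in the rest in each of the 5 UCs, a difference that was not tested. The controls had slightly more of both in the stretch, with 1.21% to 1.43% raised and 1.02% to 1.81% lowered in the rest.

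Fewer tiles were left at an intermediate level in 4 of the 5 UCs. In the stretch 31.2%, 30.1% and 31.2% of the tiles lay between 20 and 80% in the controls, and 23.04%, 23.3%, 31.9%, 28.2% and 27.3% did in UC 1 to UC 5. UC 3 lay at the level of the controls, and UC 1 and UC 2 lay lowest. In the rest of chromosome 5 the values were 34.9%, 34.4% and 33.6% in the controls and 25.2%, 25.3%, 35.6%, 30.3% and 29.99% in the UCs. The ratio of the stretch to the rest was 0.899 ± 0.0255 (SD, n = 3) in the controls and 0.915 ± 0.0134 (SD, n = 5) in the UCs (exact permutation test, two-sided, p = 0.304). With the pairs merged the ratios differed by 0.0103 (exact permutation test, p = 0.7), a comparison added after the data were seen.

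The UCs shared part of their changed tiles. Of the 93 low tiles raised in at least 1 UC, 4 were raised in all 5 UCs. In UC 1, UC 2, UC 4 and UC 5, whatever the level of UC 3, 19 were raised, the 4 included. A further 26 were raised in both UC 1 and UC 2 but neither of UC 4 and UC 5. Another 4 were raised in both UC 4 and UC 5 but neither of UC 1 and UC 2. UC 3 alone raised 3. In the rest of chromosome 5, 224 low tiles were raised in at least 1 UC, 15 in all 5 and 56 in both pairs. Of these 224, 73 were raised in UC 1 and UC 2 but neither of UC 4 and UC 5. The other way round it was 26, and UC 3 alone raised 10. Of the 340 high tiles lowered in at least 1 UC, 21 were lowered in all 5. In UC 1, UC 2, UC 4 and UC 5 44 were lowered, the 21 included. There were 38 lowered in UC 1 and UC 2 but not UC 4 and UC 5. Another 70 were lowered in UC 4 and UC 5 but not UC 1 and UC 2. In the rest of chromosome 5, 718 high tiles were lowered in at least 1 UC, 71 in all 5 and 135 in both pairs. Of these 718, 80 were lowered in UC 1 and UC 2 but not UC 4 and UC 5, and 143 the other way round. Among the 1444 tiles of intermediate level, 215 were raised and 176 lowered in both pairs, whereas 9 moved in opposite directions in the pairs. Among the 4136 such tiles in the rest of chromosome 5, the numbers were 524, 561 and 14. How the sharing in the stretch compares with the rest was not tested.

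The methylated share of all calls in the stretch was higher in the UCs, by a measure that weights tiles by their calls. It was 33.8%, 32.2% and 29.9% in control 1 to control 3, and 35.2%, 38.03%, 34.5%, 34.1% and 33.8% in UC 1 to UC 5. UC 5 lay just above control 1, and UC 2 lay highest. The means were 31.9% ± 1.97 (SD, n = 3) and 35.1% ± 1.71 (SD, n = 5), 3.19 points apart (p = 0.0179 by a two-sided exact permutation test, which cannot go lower with 3 against 5). In the rest of chromosome 5 the difference was 0.996 points (exact permutation test, p = 0.304), and the stretch minus the rest differed between the groups by 2.19 points (exact permutation test, p = 0.0179). This difference was -0.52, -0.92 and -1.28 points in the controls and 1.49, 2.97, 0.93, 0.11 and 0.92 points in UC 1 to UC 5, with no overlap. It did not hold when every tile counted equally: the mean of the tile levels in the stretch differed by 0.456 points (exact permutation test, p = 0.625), and the stretch minus the rest by 0.326 points (p = 0.0714). Part of the calls came from the 7 CpGs at chr5:95659077-95659135, which were read deeply in UC 2, UC 3 and UC 5. Without the tiles that hold them, the 2 differences were 3.05 and 2.06 points (exact permutation test, p = 0.0357 for each). That comparison was added after the data were seen. With the pairs of UCs merged, the differences were 3.04 and 2.14 points, both with an exact p of 0.1, the smallest that 3 against 3 allow. The difference in the share passed no threshold without control 2 (3.31 points, exact p = 0.0952), control 3 (2.15 points, exact p = 0.19), UC 3 (3.35 points, exact p = 0.0571) or UC 4 (3.44 points, exact p = 0.0571), and that of the stretch minus the rest without control 2 (2.18 points, exact p = 0.0952), control 3 (2.00 points, exact p = 0.0952), UC 1 (2.14 points), UC 3 (2.28 points) or UC 5 (2.28 points, each with an exact p of 0.0571). Beside these shares, the calls in the stretch came to 847233, 781662 and 1007338 in the controls and to 564483, 494135, 600475, 730006 and 1031321 in UC 1 to UC 5, and the part of coverage in the shift of the share was not tested.

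Promoters were placed by sequence, since the deposited positions are those of rn6 and the gene starts came with GRCr8: a RefSeq promoter was put where the spacing of its CpGs matched that of the deposited CpGs. Of 15918 windows with at least 8 CpGs, 5134 were placed, and 99.8% of them fell on the chromosome that RefSeq gives. Of these, 4647 had enough reads to be tested, 93 of them in the stretch and 196 in the rest of chromosome 5. In the stretch 88 of the 93 had a control mean under 10%, and 79 were under 10% in all 5 UCs. Over all 4647 tested windows these numbers were 4398 and 4034, and over the 196 of the rest of chromosome 5 they were 186 and 177. Most of the tested windows, which all had at least 8 CpGs, were thus under 10% in both groups, in the stretch and outside it. Promoters with fewer CpGs were not placed.

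The UCs had higher methylation at 6 of the 93 promoters, 6.45% of them. Over all placed promoters the share called higher was 1.87%, and in the rest of chromosome 5 it was 2 of 196, 1.02%. None was called lower in the stretch, against 0.538% of all promoters. The gap between the stretch and the background was not tested. By the unadjusted p of the quasi-binomial test, 1 promoter was lower by over 10 points with p under 0.05, and limma on M values also called 0 lower. In 3 of the 6 higher promoters the controls were almost unmethylated, and in the other 3 they were at 48.3% or above.

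**Figure D4:**
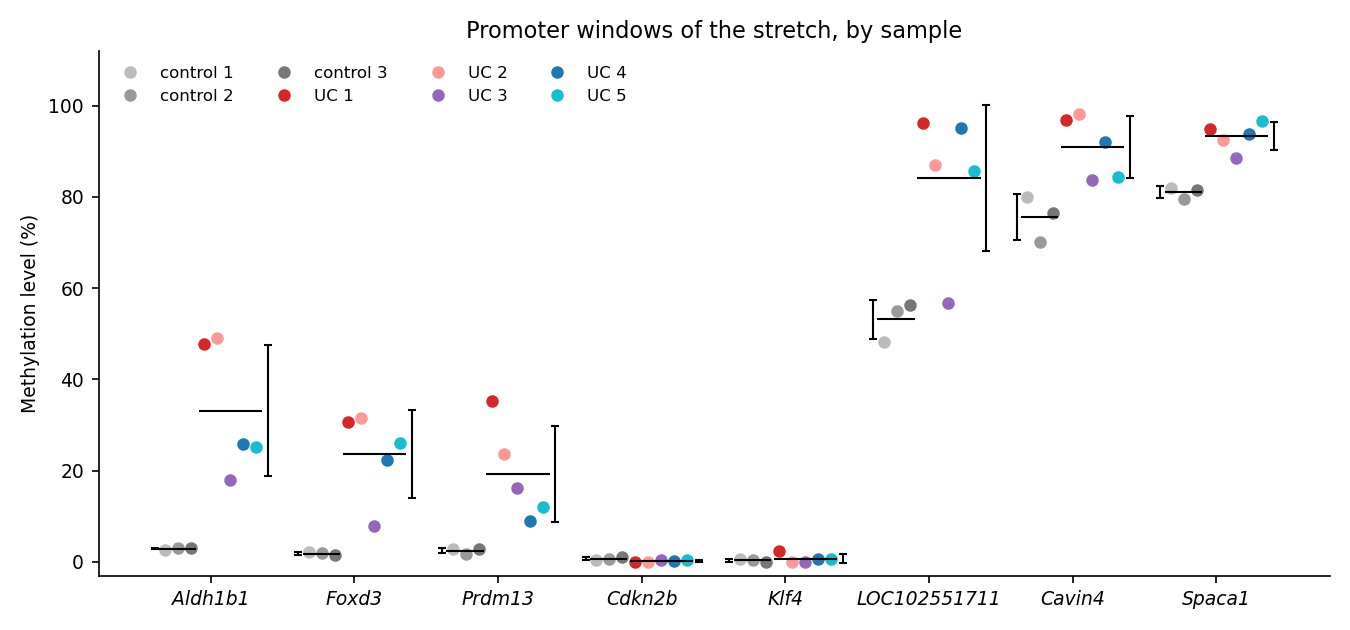
Methylation level in percent of the 6 promoters called higher and of Cdkn2b and Klf4, which were not called, with a point for each sample, a horizontal line at the mean of each group and error bars of 1 SD (n = 3 controls, n = 5 UCs). In Aldh1b1, Foxd3 and Prdm13 the controls sit at 1.49% to 3.07% and the UCs range from 7.88% to 49.0%, whereas Cdkn2b stays at or under 1.04% in every sample.

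Aldh1b1, which codes for a mitochondrial aldehyde dehydrogenase, had the highest mean level in the UCs among the called promoters that were unmethylated in the controls (rn6 chr5:61382101-61382400). Its level was 2.73%, 2.98% and 3.07% in the controls, and 47.9%, 49.04%, 18%, 25.8% and 25.2% in UC 1 to UC 5. Every UC lay far above the controls, with UC 1 and UC 2, the samples with the low coverage of the stretch, at the top. The mean was 2.93% ± 0.176 (SD, n = 3) in the controls and 33.2% ± 14.3 (SD, n = 5) in the UCs, a difference of 30.2 points (limma-moderated quasi-binomial test, adjusted p = 0.0154).

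Foxd3, a forkhead transcription factor of pluripotent and neural crest cells, rose over a longer region (promoter at rn6 chr5:118347107-118347406). Its promoter was at 2.09%, 1.98% and 1.49% in the controls, and at 30.6%, 31.5%, 7.88%, 22.3% and 26.1% in UC 1 to UC 5. UC 3 was lowest among the UCs and still above every control. The difference of the means was 21.8 points (limma-moderated test, adjusted p = 0.00895), the smallest adjusted p among the 6 promoters.

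Prdm13, a zinc finger protein of the developing nervous system, had 2.78%, 1.79% and 2.75% in the controls (rn6 chr5:35831648-35831947). The UCs had 35.3%, 23.7%, 16.2%, 8.99% and 12.1% from UC 1 to UC 5, so that UC 4 and UC 5 were lower than UC 3 here. The difference was 16.8 points (limma-moderated test, adjusted p = 0.0437).

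The other 3 promoters were already methylated in normal bladder. LOC102551711 (rn6 chr5:64170339-64170638) had 48.3%, 54.9% and 56.4% in the controls and 96.2%, 87.0%, 56.8%, 95.1% and 85.6% in the UCs, with UC 3 next to the highest control (difference 30.9 points, limma-moderated test, adjusted p = 0.0426). Cavin4, which codes for a caveola protein of muscle, had 80%, 70.1% and 76.4% in the controls and 96.8%, 98.1%, 83.7%, 92.1% and 84.3% in the UCs (rn6 chr5:64412686-64412985). Its difference was 15.5 points, and its adjusted p by the limma-moderated test was 0.05, just under the threshold before rounding. Spaca1, which codes for a membrane protein of the sperm acrosome, had 82.0%, 79.5% and 81.5% in the controls and 94.9%, 92.5%, 88.4%, 93.7% and 96.6% in the UCs (rn6 chr5:49439131-49439430, difference 12.2 points, limma-moderated test, adjusted p = 0.0239). The calls behind these levels ran from 46 to 399 per sample in LOC102551711 and from 49 to 234 in Cavin4, against 215 to 942 in Spaca1.

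Not all of these calls held with fewer samples. With the pairs of UCs merged, 0 of the 93 promoters were called, and 6 were higher by over 10 points at an unadjusted p under 0.05. The merged adjusted p of the limma-moderated test ran from 0.0586 (Foxd3) to 0.134 (LOC102551711), while the differences stayed at 19.2 points in Foxd3 and 27.7 points in Aldh1b1. Without control 1, 1 promoter was called, and without control 2 or control 3, 0 were called, with 6 again at an unadjusted p under 0.05. Without UC 1, UC 2, UC 4 or UC 5, 2 or 3 promoters were called, and without UC 3, 5 were. Over the 11 alternatives run for promoters, the adjusted p of the limma-moderated or limma test stayed under 0.05 in 8 for Foxd3, 7 for Aldh1b1, 4 for Prdm13, 3 for Spaca1 and 1 each for LOC102551711 and Cavin4, and the highest was 0.065 for Foxd3 and 0.0992 for Aldh1b1.

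Among the 87 promoters of the stretch that were not called, the difference of the means ran from -11.9 to 9.09 points. Spag8, a sperm-associated antigen, was at the lower end of this range, with 23.0%, 23.5% and 15% in the controls and 7.26%, 5.56%, 20.1%, 5.26% and 4.72% in the UCs, with UC 3 inside the range of the controls (limma-moderated test, adjusted p = 0.147). Plppr1, a phospholipid phosphatase-related membrane protein of neurons, had 4.01%, 1.04% and 0.583% in the controls and 14%, 17.7%, 9.25%, 7.19% and 5.39% in the UCs. The groups did not overlap there, and the adjusted p was 0.0886. Grin3a, a subunit of the NMDA glutamate receptor, passed the limma-moderated test (adjusted p = 0.017) with a difference of 4.62 points, under the 10 points that a call required. These 3 genes were picked after their values were seen.

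Genes listed for the stretch by function were given whether or not they had moved. Of 9 cell cycle and tumour suppressor genes, Cdkn2b and Klf4 could be placed, and neither was called. Cdkn2b, at rn6 chr5:107857336-107857635, had 0.444%, 0.671% and 1.04% in the controls and 0%, 0%, 0.49%, 0.18% and 0.505% in UC 1 to UC 5, on 253 to 674 calls. The 0 in UC 1 and UC 2 allow up to 1% and 1.19% by counting error alone. Klf4, a transcription factor of epithelial differentiation, had 0% to 0.69% in the controls and 2.38% in UC 1, with the other UCs at 0% to 0.73%. Cdkn2a was not among the placed promoters and was not analysed here. Of 12 genes of development, Foxd3 and Elavl2 were placed, and Foxd3 was called. Elavl2, an RNA-binding protein of neurons that the list holds with the transcription factors, had 0.889%, 3.03% and 0.939% in the controls, and 10.7% in UC 4 and 16.2% in UC 5, against 2.35%, 3.54% and 0% in UC 1, UC 2 and UC 3 (adjusted p = 0.139). Of 13 receptors and signalling genes, the ephrin receptor Epha7 was placed. It too had its highest levels in UC 4 and UC 5, at 12.3% and 9.46%, against 5.74%, 0% and 0.461% in UC 1 to UC 3, and up to 1.95% in the controls (adjusted p = 0.173). Of 6 matrix and secreted genes, Col27a1 and Adamtsl1 were placed, and neither was called. The fibrillar collagen gene Col27a1 was at 0% to 1.05% in all samples. Adamtsl1 had 4.04%, 1.61% and 3.39% in the controls and 5.24%, 7.01%, 6.11%, 12.8% and 7.88% in UC 1 to UC 5 (adjusted p = 0.0821).

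The surroundings of the gained promoters differed. At Foxd3, 6 adjacent tiles from 118347201 to 118348400 were called higher, the longest run of the stretch. Their mean level was 2.60% in the controls, and 34.3%, 35.3%, 14.2%, 30.1% and 26.5% in UC 1 to UC 5. Between -3056 and -2456 bases from its start, 4 tiles were at 0% to 17.03% in all samples and were not called. No tile was read between these and the tile at -56 bases, so how far the gain reached before the start was not measured. At Aldh1b1, the 3 tiles nearest to the start were called. The next tile read, 1550 bases into the gene, was at 94.7% to 100% in the controls and 75.0% to 100% in the UCs. At Prdm13, the tile at -4 bases from the start was not called. It had 2.93%, 1.83% and 3.24% in the controls and 42.5%, 30.1%, 11.5%, 4.79% and 12.1% in UC 1 to UC 5. The tile at 196 bases was not called either, whereas those at -204 and -2004 bases were. The tile at -804 bases, between the 2 called tiles, was not called, with 13.2%, 11.1% and 0% in the controls and 23.5%, 29.03%, 4.17%, 2.63% and 5.88% in UC 1 to UC 5. The 3 tiles from -2804 to -3204 bases were at or under 1.38% in every sample. Of the 3 tiles beyond them, the last, at -3804 bases, reached 12.9% in UC 2, 9.32% in UC 4 and 8.72% in UC 5, against up to 5.56% in the controls, and was not called.

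**Figure D5:**
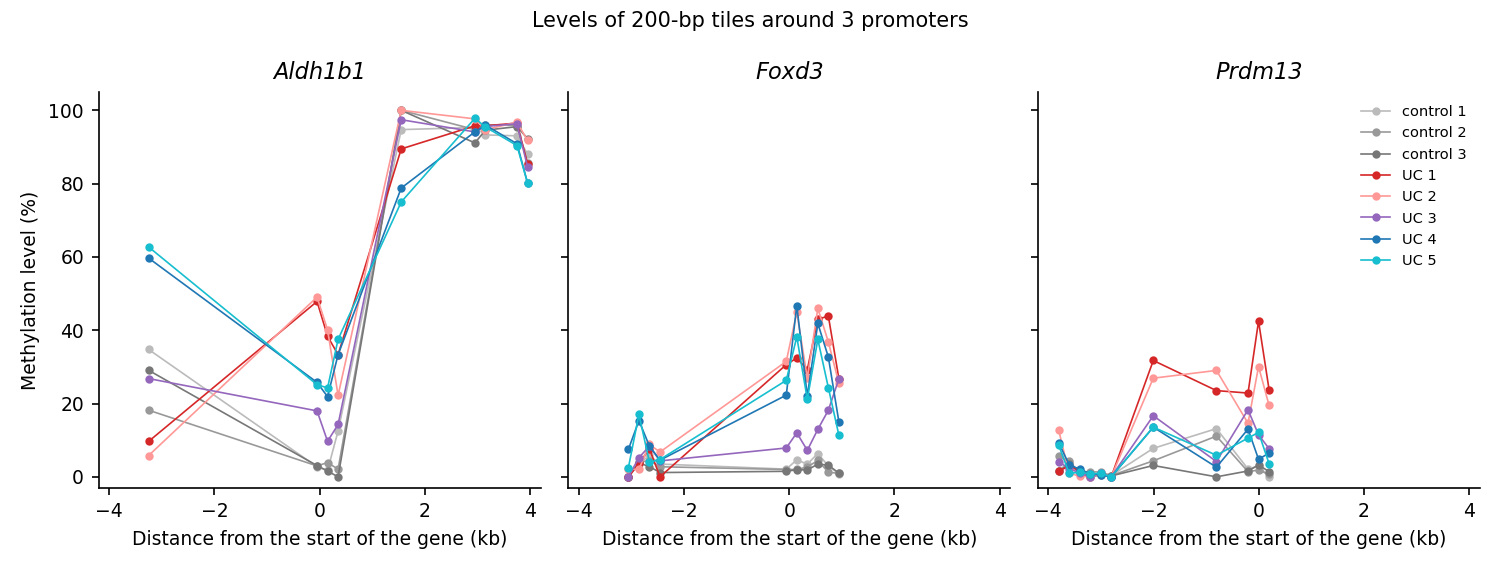
Methylation level in percent of the 200-base tiles within 4 kb of the start of Aldh1b1, Foxd3 and Prdm13, with the distance from the start of the gene in kb on the x axis, positive into the gene, and a line for each sample. The UCs separate from the controls around the start. UC 1 and UC 2 reach 42.5% and 30.1% in the tile at the start of Prdm13, which was not called and where UC 4 is at 4.79%.

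Outside the placed promoters, 2 more runs of at least 4 adjacent higher tiles were found. At chr5:60141201-60142000 the level rose from 2.98% in the controls to 37.2%, 32.7%, 10.9%, 23.6% and 22.0% in UC 1 to UC 5, a pattern like that of Foxd3. At chr5:59843001-59843800 it rose from 69.6% to between 87.0% in UC 3 and 95.5% in UC 5. Among lower tiles the longest run, of 5 called tiles at chr5:57410201-57412000, fell from 51.7% in the controls to 10.8%, 2.3%, 26%, 1.49% and 1.32% in UC 1 to UC 5. A run of 3 at chr5:74342001-74342800 fell from 40.5% to 8.26% to 14.3% in 4 UCs and to 33.8% in UC 3. Positions are those of rn6.

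The most changed single tiles, picked for the size of their difference among far more tiles than placed promoters, differed by more than the promoters did. Of the called tiles with at least 20 calls in every sample and no overlap between the groups, 307 were higher and 234 lower. These are 7.58% and 5.77% of the 4052 tiles of the stretch with that many calls, against 8.86% and 6.90% over all tiles and 8.19% and 7.74% in the rest of chromosome 5. The 6 with the largest rise and the 6 with the largest fall are named by position. The largest rise was at chr5:117338201-117338400, 7 CpGs that lie 1009 kb from the nearest placed promoter, that of Foxd3. Its level was 2.92%, 6.53% and 6.50% in the controls and 78.9%, 79.6%, 40.3%, 85.6% and 79.6% in UC 1 to UC 5 (limma-moderated test, adjusted p = 0.00205). In this tile 4 UCs were close together and UC 3 lay between them and the controls. The other 5 rose by 59.1 to 60.8 points, with UC 3 between 29.8% and 51.1% and the remaining UCs between 67.6% and 97.8%. They were chr5:47758201-47758400, chr5:37866801-37867000, chr5:79061401-79061600, chr5:57861201-57861400 and chr5:61950601-61950800. The tile at 79061401 lay 6.3 kb from the Col27a1 promoter and had 23.1%, 27.7% and 25.1% in the controls and 94.1%, 90.7%, 50%, 95.7% and 96.0% in the UCs, whereas the promoter itself did not exceed 1.05%.

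The largest fall was at chr5:73157201-73157400, a tile of 3 CpGs. It had 81.7%, 94.7% and 87.3% in the controls, and 1.75% in UC 2 and 0% in the other 4 UCs, on 48 to 103 calls per sample (difference -87.6 points, limma-moderated test, adjusted p = 0.00048). This tile was nearly free of methylation in all 5 UCs, UC 3 included. The tile at chr5:78518001-78518200 fell from 77.4%, 91.2% and 70.7% to 4.35%, 1.56%, 20%, 0.694% and 0.595%. The other 4, at chr5:57609201-57609400, chr5:78552601-78552800, chr5:77150001-77150200 and chr5:79272601-79272800, had differences of -65.9 to -67.3 points, with UC 3 between 30.8% and 35.8% and the other UCs at or under 16.9%. With the pairs merged, the adjusted p of the 12 tiles by the limma-moderated test ran from 0.0124 (chr5:73157201-73157400) to 0.0765 (chr5:47758201-47758400), and it was also over 0.05 at chr5:79061401-79061600 (0.0514). A level of 0 on 48 calls, as in UC 3 at the first of these tiles, allows up to 6.25% by counting error alone.

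The study listed promoter regions with higher methylation in these same UCs, and 4 of them start in the stretch. Because they were chosen on these samples, their levels are a description and were not tested. At Aldh1b1 (rn6 chr5:61382347-61382390, 3 CpGs) the level was 0.952%, 2.63% and 2.94% in the controls and 60.5%, 62.0%, 32.9%, 46.3% and 48.5% in UC 1 to UC 5. At Cfap206, a gene of motile cilia (chr5:50193516-50193624, 7 CpGs), it was 1.71%, 2.47% and 1.22% in the controls, 24.9% to 28.5% in 4 UCs, and 0% in UC 3 on 108 calls, which allows up to 2.78% by counting. At Npr2, the receptor of C-type natriuretic peptide (chr5:59128523-59128560, 2 CpGs), it was 2.17%, 0% and 1.3% in the controls and 19.6%, 10.3%, 3.70%, 11.8% and 23.3% in the UCs. The 0% of control 2 rests on 29 calls, which allow up to 10.3% by counting, as high as UC 2. At Spaca1 (chr5:49439066-49439093, 1 CpG) it was 70.0%, 78.6% and 79.6% in the controls and 100%, 89.7%, 77.8%, 94.1% and 97.7% in the UCs, with UC 3 inside the range of the controls. UC 3 had the lowest level of the 5 UCs in each of the 4 regions.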

How the data were processed

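RRBS calls of 5 UCs and 3 control bladders were analysed. Before deposit the authors trimmed adapters, mapped them to rn6 (RRBSMAP, reads that aligned to a single place) and discarded PCR copies by barcode. The RRBSMAP version was not given in the sources used here, and the submitters' processing notes also name HOMER. The deposited files hold, for each CpG with both strands combined, raw counts of C calls and of C and T calls, opposite-strand counts, an effective count and a ratio. The effective counts are expected counts as deposited by the authors, scaled by the share of G on the opposite strand and used here as an alternative. The deposited ratio is a fraction and was not used. No CpG under 3 reads was listed.

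Calls were summed over 200-base tiles with at least 3 CpGs in each sample. The level of a region is its C calls over all its calls, so that regions of few calls are imprecise, and CpGs on the same read are not independent. All 258144 tiles, and separately the 4647 placed promoters, were tested by a quasi-binomial model with dispersion moderated by limma 3.58.1 in R 4.3.3 and Benjamini-Hochberg adjustment over all of them. For a single value per sample, exact permutation tests ran over 56 divisions of the samples. The test was tried on simulated counts first. The p-value of a tile or promoter sets the group difference against the spread between samples within the groups, which may be technical. An exact p-value is the share of divisions with a difference at least as large in size. Python 3.11.15, numpy 2.4.6, pandas 2.3.3, scipy 1.17.1 and matplotlib 3.10.9 were used. A promoter was placed where at least 8 CpGs, and at least 90% of the deposited ones, matched in spacing. No genome of rn6 was used here.

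The stretch, the gene lists and the tests were chosen with earlier results of these data known. Named are the 4 listed regions, the 6 largest rises and 6 largest falls among eligible tiles, up to 8 higher and 4 lower promoters, and the 4 gene lists. Alternatives were other coverage minimums, 1-kb tiles, the effective count, other difference limits, unmoderated dispersion, an F-test on percentages, limma on M values, tile means, a replicate block, other coverage windows, merged pairs of UCs and each sample left out. Leaving out the 7 deep CpGs, and the outside windows with low coverage, was added after the data were seen.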

Additional observations from a re-analysis of the deposited data

Results flagged for a closer look

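Values of the 5 UCs were screened for a sample that stood apart from the other 4 (Dixon's criterion), for the 6 called promoters, the 12 named tiles and the 12 summary values. Of 30 values tested, 11 had such a sample, where 5 independent samples would give about 1 in 20, or 1.5. In 10 of the 11 it was UC 3, which lay between the controls and the other UCs. UC 3 was at 56.8% at the promoter of LOC102551711. Among tiles that rose, it was at 40.3% in the tile at 117338201, 49.3% at 47758201, 49.6% at 37866801, 50% at 79061401, 51.1% at 57861201 and 29.8% at 61950601. Among tiles that fell, it was at 20% at 78518001, 35.8% at 78552601 and 32.8% at 79272601. In the tile at 73157201, UC 2 stood apart with 1.75%, beside 0% in the other 4 UCs, on few calls. The tiles were named for the size of their difference, so they are not independent draws. UC 1 and UC 2, and UC 4 and UC 5, were also alike in pairs, which leaves UC 3 as the unpaired sample. The 1.5 is therefore not the number that chance gives for these samples. The share of tumour cells in UC 3 was not tested.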

How the results depend on the processing

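Called tiles (395 higher and 297 lower) fell to 190 and 135 with at least 10 reads per CpG, 193 and 125 with 50 calls per tile, 182 and 149 with merged pairs, 231 and 190 by an F-test on percentages, and 232 and 194 with no moderation. They rose to 646 and 649 of 8882 tiles with 10 calls in place of 3 CpGs. A limit of 20 points left 253 higher tiles. With 1 sample left out the counts were 172 to 576 and 148 to 417. The difference in methylated share lost its call with 10 calls per tile (2.89 points), 1-kb tiles (2.82), merged pairs (3.04) and tile means (0.456), and was 2.15 to 4.11 points with 1 sample left out. The stretch minus the rest lost it with 10 reads per CpG (1.85), merged pairs (2.14) and tile means (0.326), and was 1.77 to 2.49 with 1 sample left out. The small difference in low tiles raised turned positive with the effective count (0.0181), without the other low windows (0.413) and in the replicate block (0.201), with -0.1996 to 0.0771 when 1 sample was left out. That in high tiles lowered turned positive with 10 reads (0.0103), 10 calls (0.494), 1-kb tiles (0.173) and without the other low windows (0.308). It was -0.527 at 30 points, and -0.801 to -0.115 with 1 sample left out. Promoters called higher came to 0 with merged pairs and 0 to 5 with 1 sample left out, and promoters called lower to 0 to 1. The median coverage of UC 1 was -0.73 over CpGs in all 8 files. Why these values moved was not tested. Of 286 alternatives for the 18 named tiles and promoters, 230 kept the call, 56 did not, and 0 changed sign. The other difference limits leave the adjusted p of the named tiles as it was, so those alternatives could only keep the call. The tiles were named for large differences, so a change of sign was unlikely from the start.

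The replicate block gave 86 higher and 53 lower tiles, 3 higher promoters, and 3.97 and 2.71 points for the share and the stretch minus the rest, whose paired test on 3 pairs cannot go below an exact p of 0.25. Deviations of samples with the same number correlated at 0.0149, -0.0133 and 0.0401 across tiles, so the numbers were not taken to pair the samples.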
